A study of Mus musculus with 8 samples.

Results

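The cholinergic genes examined here were the 5 muscarinic receptors (Chrm1 to Chrm5), 3 subunits of the main brain nicotinic receptors (Chrna4, Chrna7 and Chrnb2) and Chat and Ache, which make and break down acetylcholine. They were chosen by name: a probe was included when the gene name in the scanner file was 1 of these 10 symbols, out of 37074 gene names on the array. All 10 genes had a probe, and together they had 20 of the 56605 probes that were not controls. Total RNA from the whole cerebral cortex and striatum of 4 male C57BL/6J (B6) mice and 4 male BTBRTF/ArtRbrc (BTBR/R) mice was hybridised to Agilent 1-colour arrays, with 1 array for each mouse. BTBR/R is an inbred subline of the BTBR stock, and B6 is the standard inbred comparison strain. The mice were 4 months old except BTBR/R mouse 1, which was 6 months old. No treatment was given, and both strains were sampled from the same combined dissection, so a value cannot be placed in cortex or in striatum.

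Acetylcholine acts through muscarinic receptors, which couple to G proteins, and through nicotinic receptors, which are ion channels built from several subunits. Chrm1, Chrm3 and Chrm5 couple mainly to Gq and phospholipase C, and Chrm2 and Chrm4 couple mainly to Gi and Go and lower cyclic AMP. The striatum receives acetylcholine from its own large interneurons, and the cortex receives it mainly from the basal forebrain. Chat, the enzyme that makes acetylcholine, marks these neurons, and Ache, the enzyme that breaks it down, is found in them and in many cells that receive the transmitter.

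The results turned on 3 probes for the muscarinic receptors Chrm2 and Chrm3, and the 60-base sequences of the pair that was higher in BTBR/R are shown to define what was measured. From general knowledge of the receptors, since no annotation of mm9 was used here, both were taken to lie in the coding stretch for the carboxy-terminal tail. They are at chr6:36474550-36474609 on the plus strand (Chrm2) and chr13:9876539-9876598 on the minus strand (Chrm3) of mm9. They are written 5′ to 3′, with capitals for bases that were identical when the pair was laid side by side without gaps, which was the case for 26 of 57 aligned bases.
Chrm2 A_55_P2055284: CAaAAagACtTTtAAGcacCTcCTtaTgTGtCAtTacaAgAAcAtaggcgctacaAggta
Chrm3 A_51_P247853: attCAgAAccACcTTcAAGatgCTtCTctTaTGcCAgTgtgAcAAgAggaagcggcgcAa
The other Chrm3 probe, A_55_P1955681, lies at chr13:9875880-9875939, with its start 659 bases further towards the 3′ end of the transcript.

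Values are given as processed signal, the background-subtracted brightness of a spot in arbitrary units, and as scaled signal, its log2 after subtraction of the 75th percentile of the array. A probe was detected where the scanner software marked it as well above background. The scaled signals of different probes are not comparable as levels, so each probe was compared only between mice. The B6 arrays detected 64.5% to 66.8% of the probes and the BTBR/R arrays 53.5% to 57.2%, and the lowest signal that counted as detected was 14.5 to 17.8 in B6 and 36.1 to 47.1 in BTBR/R. Dim probes were therefore measured less well in BTBR/R. All 8 arrays were on 1 slide, with B6 in the first column and BTBR/R in the second, so an effect of the column cannot be told apart from one of strain. The 9 striatal projection neuron marker genes with a probe and all 8 cortical glutamatergic marker genes were detected on all 8 arrays, as the tissue label requires. The mean scaled signal of the striatal list was 2.34 to 2.47 in B6 and 2.22 to 2.4 in BTBR/R, and that of the cortical list was 0.65 to 0.84 in B6 and 0.78 to 0.96 in BTBR/R. The part of this in the receptor differences was not tested.

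Markers chosen for tissue outside the dissection differed between mice of the same strain. Whether their signal came only from such tissue was not tested. The mean scaled signal over 11 detected probes for thalamic and habenular genes was 0.23 in B6 mouse 1 and -1.37 to -1.23 in the other B6 mice. It was -0.21 in BTBR/R mouse 2 and -1.39 to -1.06 in the other BTBR/R mice. Of the 7 genes of that list, 6 were detected on all 8 arrays (Slc17a6, Tcf7l2, Prkcd, Lef1, Calb2 and Tac2), and Gbx2 was not. The mean over 7 probes for choroid plexus genes, all 6 of them detected, was 0.45, 0.0, -0.77 and -2.23 in B6 and -1.56, -0.25, -0.35 and -0.62 in BTBR/R, highest in B6 mouse 1 and lowest in B6 mouse 4. B6 mouse 1 and BTBR/R mouse 2 are therefore left out, singly and together, for Chrna4 and Ache below.

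Of the 20 probes, 14 were detected on all 8 arrays, and these covered 9 of the 10 genes. Chrm5 was detected in 3 B6 mice and in no BTBR/R mouse, 1 Chat probe was detected in 4 B6 mice and in no BTBR/R mouse, and 4 other Chat probes were detected on no array. A probe was called different where limma's Benjamini-Hochberg adjusted p over all 56605 probes was below 0.05 and the difference was at least 2-fold. The probes called were Chrm2 A_55_P2055284 and Chrm3 A_51_P247853, both higher in BTBR/R, which is 14.3% of the 14 detected on all 8 arrays. Among all 28557 probes detected on all 8 arrays, 1.04% were called with a higher signal in BTBR/R and 1.16% with a lower one. Over all probes, 20.2% were called higher and 2.27% lower, most of the first being probes that were not detected on every array. With the fold limit dropped, 3 of the 14 probes were higher and 1 was lower at an adjusted p below 0.05. That is 21.4% and 7.14%, beside 13.0% and 13.9% of all probes detected on all 8 arrays and 27.7% and 11.6% of all probes. The median difference of the 14 probes was 0.16 on the log2 scale, and that of all 28557 was 0.0.

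**Figure D1:**
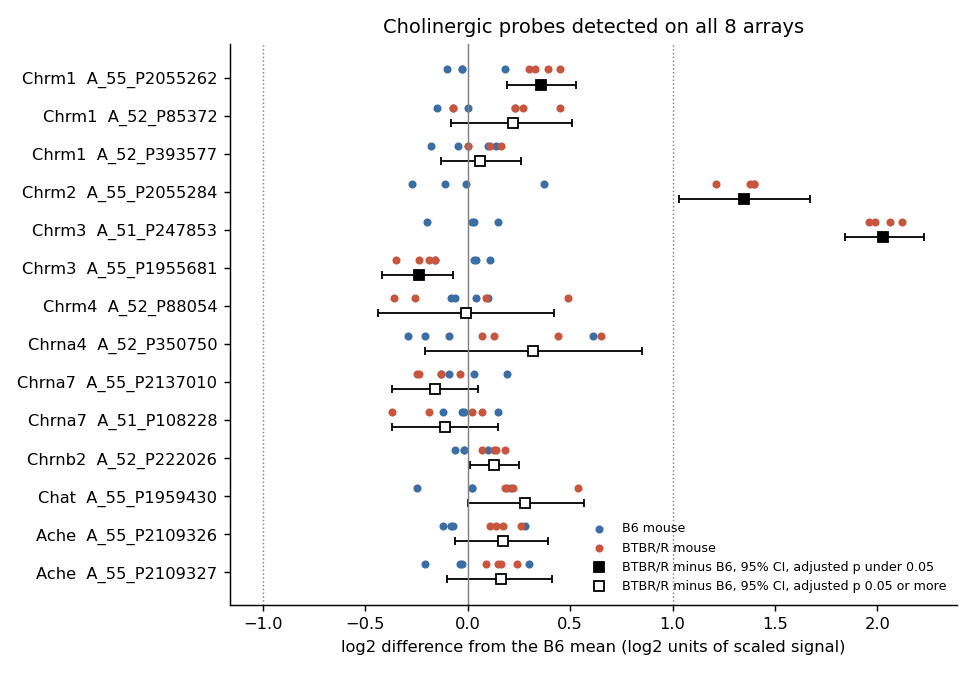
Horizontal axis, log2 difference of scaled signal from the B6 mean, with dotted lines at a 2-fold change; vertical axis, the 14 cholinergic probes detected on all 8 arrays. Points are single mice (4 per strain) and squares are the BTBR/R minus B6 difference with its 95% confidence interval, filled where the adjusted p was below 0.05: Chrm2 and 1 Chrm3 probe lie beyond the 2-fold line, and 1 Chrm1 probe and the other Chrm3 probe are filled close to 0.

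Chrm3, a receptor that drives phospholipase C signalling in cortical neurons, gave the widest gap between strains among the cholinergic probes. At the probe A_51_P247853 the processed signal was 121, 155, 141 and 144 in the B6 mice and 559, 554, 554 and 636 in the BTBR/R mice. The lowest BTBR/R mouse was thus far above the highest B6 mouse. The mean scaled signal was -2.01 ± 0.15 in B6 and 0.02 ± 0.07 in BTBR/R (SD, n = 4 each). The difference was 2.03 on the log2 scale (SE 0.08, 95% confidence interval 1.84 to 2.23), a 4.09-fold higher signal in BTBR/R with a limma adjusted p of 8.78e-06.

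The Chrm3 probe closer to the 3′ end went the other way. Its processed signal was 337, 383, 401 and 394 in B6 and 297, 303, 337 and 352 in BTBR/R, so the highest BTBR/R mouse was just above the lowest B6 mouse in signal. After scaling the strains met at -0.74, with -0.74 to -0.47 in B6 and -0.93 to -0.74 in BTBR/R. The difference was -0.24 (SE 0.07, 1.18-fold lower in BTBR/R, limma adjusted p = 0.037). That small decrease was not secure: it missed the threshold when any 1 of 6 mice was left out, with an adjusted p of up to 0.092.

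Measured within each array, A_51_P247853 minus the 3′ probe was -1.5 to -1.31 in B6 and 0.72 to 0.91 in BTBR/R. The changes of the Chrm3 probes thus differed by 2.27 on the log2 scale, with every mouse of one strain on the far side of every mouse of the other. The exact two-sided permutation test over the 8 arrays gave p = 0.0286, which is the smallest value that 4 against 4 can give, and 0.0858 after adjustment over the 6 probe pairs of these genes, above 0.05. The array gave no single value for the gene.

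Chrm2, the Gi-coupled receptor that serves as an inhibitory autoreceptor on cholinergic terminals, was also higher in BTBR/R. Its only probe read 96.3, 61.5, 68.3 and 75.1 in the B6 mice and 198, 164, 200 and 202 in the BTBR/R mice. The strains did not overlap. The B6 mouse with the highest value was mouse 1, and the BTBR/R mouse with the lowest was mouse 2. The mean scaled signal was -2.92 ± 0.27 in B6 and -1.57 ± 0.09 in BTBR/R (SD, n = 4 each). The difference was 1.35 (SE 0.14, 95% confidence interval 1.03 to 1.67), 2.55-fold with a limma adjusted p of 0.000123. Without B6 mouse 1 and BTBR/R mouse 2, the mice with high thalamic markers, it was 1.52 (limma adjusted p = 0.000355). With the normexp background correction, which adds an offset to all signals, it was 0.92 (limma adjusted p = 8.98e-05), below the 2-fold limit.

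**Figure D2:**
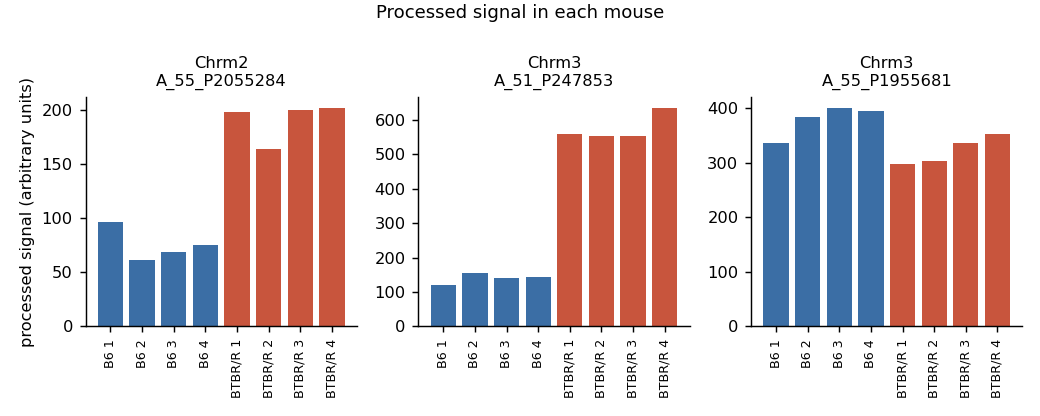
Vertical axes, processed signal in arbitrary units from 0; horizontal axes, the 8 mice, B6 in blue and BTBR/R in red, 1 bar for each mouse. The BTBR/R bars stand above all B6 bars for Chrm2 (164 to 202 against 61.5 to 96.3) and for the Chrm3 probe A_51_P247853 (554 to 636 against 121 to 155), and mostly below them for the other Chrm3 probe (297 to 352 against 337 to 401).

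Detected probes around Chrm2 were lower or did not pass the test, and those around Chrm3 moved in both directions. These neighbours were looked up after the values of Chrm2 and Chrm3 were known. Within 1 Mb on each side of the Chrm2 probe, 8 probes of other genes were detected on all 8 arrays. Their differences ran from -0.41 to -0.04, and 6 were lower in BTBR/R at an adjusted p below 0.05 with none higher and none called. At a probe detected in the 4 B6 mice and in no BTBR/R mouse, 9330158H04Rik was called lower, by at least 1.05-fold. They included the growth factor gene Ptn (-0.22 and -0.26) and the diacylglycerol kinase gene Dgki (-0.31 and -0.41). Within 1 Mb of the Chrm3 probe, 12 probes were detected, with differences from -1.06 to 0.6, of which 2 were higher and 4 lower at an adjusted p below 0.05. Of all probes detected on all 8 arrays, 13.0% were higher and 13.9% lower by that rule, so the Chrm2 window held a larger share of lower probes than the array, and genes in a window are not independent. The GTPase gene Gtpbp4 was the highest (0.6), and the transcript AK215297 was the lowest (-1.06) and the only one of these 12 called. The isomerase gene Idi2, at A_66_P121137, was detected in 2 B6 and 4 BTBR/R mice. It read 14.9 to 19.7 in B6 and 57.7 or more in every BTBR/R mouse and was called higher there, by at least 3.7-fold (limma adjusted p = 2.76e-05).

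Chrm1, the main Gq-coupled receptor of cortical and striatal projection neurons, had 3 probes on chromosome 19. The probe A_55_P2055262 at chr19:8758011-8758070 read 1725, 1796, 1777 and 2122 in B6 and 2292, 2208, 2456 and 2629 in BTBR/R, without overlap. It was 1.29-fold higher in BTBR/R (log2 difference 0.36, SE 0.07, limma adjusted p = 0.00561). The probe A_52_P393577, which starts 2669 bases upstream, read 62.2 to 78.6 in B6 and 72.0 to 83.5 in BTBR/R, with a difference of 0.06 (SE 0.08, limma adjusted p = 0.591). The junction-spanning probe A_52_P85372 read 98.3 to 130 in B6 and 110 to 143 in BTBR/R, with a difference of 0.22 (SE 0.13, limma adjusted p = 0.225). The strains overlapped at both of these probes. Within arrays, the first of these probes changed by 0.3 more than A_52_P393577. The exact permutation p was 0.0286, again the smallest that 4 against 4 can give, and 0.0858 after adjustment over the 6 pairs.

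Chrm4, the Gi-coupled receptor of striatal neurons of the direct pathway, read 74.4, 68.2, 76.3 and 70.4 in B6 and 77.6, 96.6, 57.4 and 63.1 in BTBR/R. The BTBR/R mice lay on both sides of the B6 mice, and the mean difference was -0.01 (SE 0.18, 95% confidence interval -0.44 to 0.42, limma adjusted p = 0.973), with a sign that changed between scalings. Chrm5, a Gq-coupled receptor of midbrain dopamine neurons, read 23.4, 21.1, 12.3 and 22.6 in B6 and 10.5, 11.2, 17.7 and 11.0 in BTBR/R. The B6 values were below the lowest signal that counted as detected on any BTBR/R array, so no fold is given for Chrm5 (limma adjusted p = 0.0759).

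None of the 4 probes of the nicotinic subunits Chrna4, Chrna7 and Chrnb2 passed the limma adjusted p, while 1 of them, Chrnb2, was under 0.05 unadjusted and passed with the methods' t-test after adjustment. Chrnb2, the beta subunit of most high-affinity brain nicotinic receptors, had the least spread of them. It read 582, 536, 530 and 531 in B6 and 620, 544, 613 and 624 in BTBR/R, a difference of 0.13 (SE 0.05, 95% confidence interval 0.01 to 0.25, limma adjusted p = 0.0821). In BTBR/R 3 mice were above all B6 mice, and mouse 2 was below B6 mouse 1. Chrna7, which forms the fast calcium-permeable receptor, had 2 probes 42.6 kb apart. Their differences were -0.16 (SE 0.09, limma adjusted p = 0.192) and -0.11 (SE 0.11, limma adjusted p = 0.46), and the strains overlapped at both.

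Chrna4, the usual alpha partner of Chrnb2 and a subunit with high expression in the thalamus, read 164, 92.5, 86.6 and 102 in B6 and 147, 160, 120 and 118 in BTBR/R. The highest B6 and the highest BTBR/R mouse were mouse 1 and mouse 2, the same mice that stood out in the thalamic markers. The highest B6 signal was 1.87 times the lowest after scaling. Over all mice the difference was 0.32 (SE 0.23, 95% confidence interval -0.21 to 0.85, limma adjusted p = 0.307). Leaving out B6 mouse 1 alone gave 0.52, past the adjusted p. Leaving out BTBR/R mouse 2 alone gave 0.21 (limma adjusted p = 0.533), and leaving out both mice gave 0.41, not past the adjusted p. The part of thalamic tissue in these values was not tested.

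Ache, the enzyme that clears acetylcholine at synapses, also stood highest in B6 mouse 1. Its probe A_55_P2109326 read 698, 547, 524 and 554 in B6 and 625, 654, 659 and 663 in BTBR/R, and its probe A_55_P2109327 read 455, 318, 356 and 364 in B6 and 440, 393, 401 and 427 in BTBR/R. At both probes B6 mouse 1 lay above every BTBR/R mouse and the other B6 mice lay below every BTBR/R mouse. The differences over all mice were 0.17 (SE 0.1, limma adjusted p = 0.214) and 0.16 (SE 0.11, limma adjusted p = 0.292). Without B6 mouse 1 both were 0.26, with limma adjusted p values of 0.0125 and 0.0291, so 1 mouse decided whether Ache passed the adjusted p, though not at 2-fold. Without BTBR/R mouse 2 they were 0.14 (limma adjusted p = 0.367) and 0.16 (limma adjusted p = 0.376). Without B6 mouse 1 and BTBR/R mouse 2 they were 0.23 (limma adjusted p = 0.0201) and 0.26 (limma adjusted p = 0.0595). Whether thalamic tissue in these samples had a part in this was not tested.

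**Figure D3:**
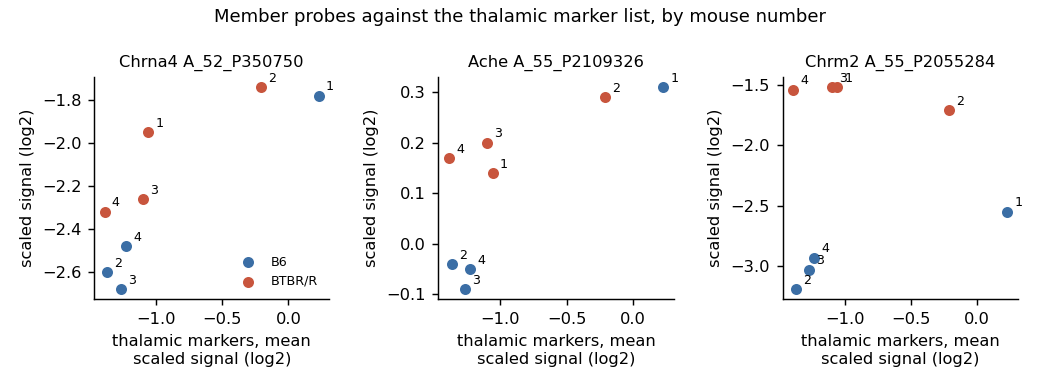
Horizontal axes, mean scaled signal of 11 probes for thalamic and habenular genes; vertical axes, scaled signal of Chrna4, Ache A_55_P2109326 and Chrm2 (both log2); points are mice with their numbers, B6 in blue and BTBR/R in red. B6 mouse 1 (0.23) and BTBR/R mouse 2 (-0.21) stand to the right of all other mice and are the highest of their strain for Chrna4 and at this Ache probe, while for Chrm2 the strains stay apart.

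Chat passed the limma adjusted p at 0 of its 6 probes and the methods' t-test at 0, with 1 probe, detected on no array, under 0.05 unadjusted. The 1 probe detected in all mice, A_55_P1959430 at chr14:33221421-33221480 on the minus strand, read 217, 215, 243 and 182 in B6 and 312, 231, 254 and 253 in BTBR/R. The difference was 0.28 (SE 0.12, 95% confidence interval 0.0 to 0.57, limma adjusted p = 0.104), with BTBR/R mouse 1, the 6-month-old mouse, the highest. After scaling the strains overlapped narrowly, since B6 mouse 3 (-1.19) was above 2 of the BTBR/R mice. This probe starts 38.7 kb from the nearest other Chat probe, and its 3′ end is a repeat of 4 bases, printed here because it limits what the probe can be taken to measure.
Chat A_55_P1959430, last 23 bases: AGAAAGAAAGAAAGAAAGAAAGA
A run of 5 copies of AGAA was found in 3 of the 56605 probes (0.0053%), this one included, searching the strand printed on the array. The 3 were all detected on all 8 arrays, and their differences ran from -0.09 to 0.28. At the Chat probe A_55_P2744606, which spans a splice junction, the signal was 37.2, 40.0, 35.9 and 48.1 in B6, where it counted as detected, and 40.7, 29.1, 32.4 and 42.1 in BTBR/R, where it did not. No fold is given there, since the B6 signals were at the limit of detection of the BTBR/R arrays. The 4 Chat probes detected on no array read 3.59 to 41.7.

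The transporters that share cholinergic terminals with Chat gave no called difference either. Slc18a3, the vesicular acetylcholine transporter, whose gene lies within the Chat locus, read 437, 358, 367 and 291 in B6 and 389, 358, 340 and 348 in BTBR/R, a difference of -0.01 (SE 0.13, 95% confidence interval -0.32 to 0.29, limma adjusted p = 0.953). Slc5a7, the high-affinity choline transporter, had a probe detected in all mice with a difference of -0.13 (SE 0.15, limma adjusted p = 0.539). Its other probe, detected in 4 B6 mice and 2 BTBR/R mice, was lower in BTBR/R by at least 1.67-fold (limma adjusted p = 0.0206). Whether the changes of the Slc5a7 probes differ was not tested.

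Whether genes of cholinergic neurons varied together between mice of a strain was examined, and no relation with Chat passed adjustment. The mean scaled signal over 6 detected probes of the cholinergic neuron list was -1.05 in B6 mouse 1, -1.36 and -1.28 in mice 2 and 3 and -1.64 in mouse 4. In BTBR/R it was -1.04 in mouse 1, -1.27 and -1.25 in mice 2 and 3 and -1.48 in mouse 4. The ranges of the strains overlapped almost wholly. With strain means removed, Chat correlated over the 8 mice with Slc5a7 (Pearson r = 0.73, exact permutation p = 0.0747; Spearman rho = 0.86, exact p = 0.0365) and with Slc18a3 (r = 0.65, exact p = 0.092; rho = 0.76, exact p = 0.059). The transcription factor Lhx8 (r = 0.66, exact p = 0.13; rho = 0.76, exact p = 0.059) and the neurotrophin receptor Ngfr (r = 0.66, exact p = 0.101; rho = 0.76, exact p = 0.059) gave similar values. Ache did not follow Chat (r = -0.14, exact p = 0.667; rho = -0.07, exact p = 0.858). None of these 5 relations passed adjustment within the family (lowest adjusted p = 0.163 for r and 0.0737 for rho). Without the 2 mice farthest from the median of Chat, r was 0.89 for Slc5a7, 0.82 for Slc18a3, 0.69 for Lhx8, 0.66 for Ngfr and 0.5 for Ache. In whole tissue, fewer cells of a type and less RNA per cell cannot be told apart.

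**Figure D4:**
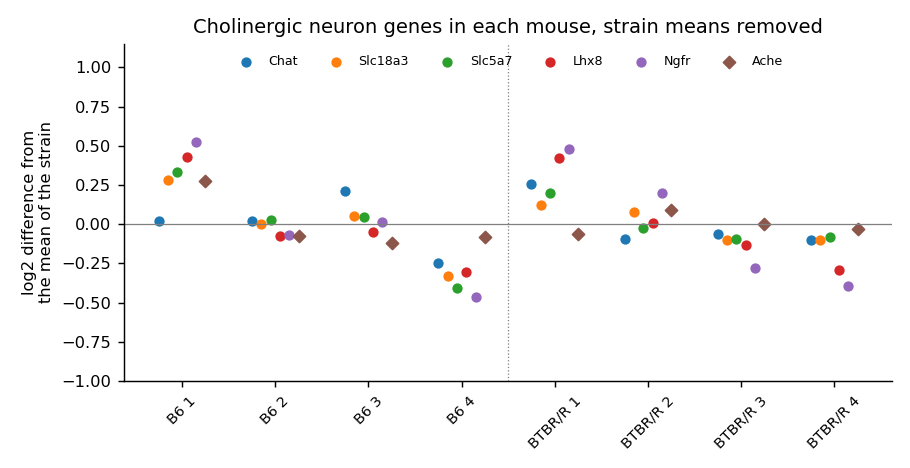
Vertical axis, scaled signal minus the mean of the strain (log2); horizontal axis, the 8 mice, with 6 genes side by side in each. Chat, Slc18a3, Slc5a7, Lhx8 and Ngfr were all below their strain mean in B6 mouse 4 and all above it in BTBR/R mouse 1, while Ache (diamonds) was highest in B6 mouse 1.

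The genes whose variation between mice was most like that of 3 cholinergic genes were taken from the 28547 probes detected and measured on all 8 arrays, by Pearson r with strain means removed, and these are descriptions. For Chat they were the array transcript NAP072206-1 (0.997), Zfp866 (0.984), Akap7 (0.966), NAP093863-001 (0.966) and Ddx3x (0.96). For Chrm2 they were Ddrgk1 (0.993), Mroh1 (0.982), Pitpnc1 (0.979), Elmo1 (0.974) and A730017C20Rik (0.973). For the Chrm3 probe A_51_P247853 they were Camkv (0.978), BU502925 (0.967), Pdzd2 (0.966), Jak1 (0.963) and Tnfaip8l3 (0.962). No other cholinergic gene was among them.

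The nicotinic subunits outside the named set are mostly subunits of muscle, ganglia, habenula or inner ear. Of these 13 genes, 4 had a probe detected on all 8 arrays. Among these 4 probes, Chrna2 (0.41, SE 0.07, limma adjusted p = 0.00261) and Chrna9 (0.31, SE 0.06, limma adjusted p = 0.00517) were higher in BTBR/R, while Chrna10 (0.55, limma adjusted p = 0.264) and Chrne (-0.06, limma adjusted p = 0.806) did not pass. The other Chrna9 probe, which is labelled with a different transcript, was detected on no array (-0.17, limma adjusted p = 0.483). Chrna2 marks a class of deep cortical interneurons. Its signal was 129, 117, 117 and 111 in B6 and 161, 157, 165 and 151 in BTBR/R, with no overlap. Of the 9 probes detected on no array, 7 were called higher in BTBR/R, with muscle subunits such as Chrnd (1.44) and Chrng (1.47 and 1.3) among them. That is 77.8%, beside 67.7% of all 14867 probes detected on no array. These calls came from signals below the limit of detection of both strains and are no measure of the genes.

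**Figure D5:**
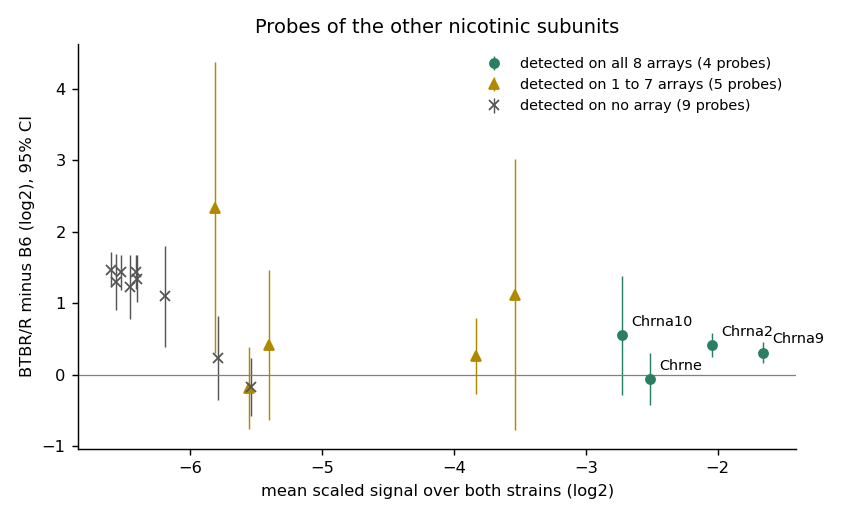
Horizontal axis, mean scaled signal over both strains (log2); vertical axis, BTBR/R minus B6 difference (log2) with its 95% confidence interval, for the 18 probes of the 13 other nicotinic subunits. The 7 differences above 1 among the crosses at the left are probes detected on no array, while the 4 probes detected on all 8 arrays (circles, named) lie between -0.06 and 0.55.

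The other parts of the cholinergic system were read against the 13.0% of all probes detected on all 8 arrays that were higher and the 13.9% that were lower at an adjusted p below 0.05. Of the 19 probes detected on all 8 arrays for the synthesis, packaging, uptake and breakdown of acetylcholine, 0 passed the limma adjusted p, 0 were under 0.05 unadjusted and 0 passed the methods' t-test after adjustment, and their median difference was -0.01. Of 16 such probes for chaperones and Ly6 modulators of nicotinic receptors, 1 was lower: Lypd6b, with -0.27 (limma adjusted p = 0.00751), and 5 were under 0.05 unadjusted. Of 40 such probes for muscarinic transducers and effectors, 2 were higher and 3 lower, with a median of -0.03, and 10 were under 0.05 unadjusted. The G protein Gnai3 (0.23) was among the higher ones, and the lower ones were Rgs8 (-0.59), Plcb1 (-0.49) and the M-current channel Kcnq3 (-0.18). Plcb1, a phospholipase C downstream of Gq, had 4 other probes between -0.06 and 0.02. Rgs8, which shortens Gi and Gq signals, had a second probe at 0.06. The second Kcnq3 probe went the other way, at 0.2, and did not pass (limma adjusted p = 0.369). Genes of these lists that are named for passing the adjusted p without reaching 2-fold were chosen after their values were seen. Among the 7 such probes for cholinergic neuron identity, Isl1 was lower at 1 probe (-0.66, limma adjusted p = 0.0355) and not at its other probe (0.08, limma adjusted p = 0.745).

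Kcnq5, an M-current channel that muscarinic receptors close, was the 1 gene of these lists called at a probe detected on all arrays of a strain. The signal of A_55_P2023717 at chr1:21456326-21456385 was 114, 213, 137 and 18.5 in B6 and 12.0, 10.2, 12.4 and 12.4 in BTBR/R, where it was not well above background. It was at least 2.05-fold lower in BTBR/R (limma adjusted p = 0.0144), with B6 mouse 4 close to the BTBR/R mice. That mouse set the size of the bound, which was 3.48-fold without it (limma adjusted p = 0.000181, a setting added after seeing the data) and 1.53-fold to 1.89-fold when any other single B6 mouse was left out. The other 4 Kcnq5 probes gave differences of -0.13 to 0.06, none past the adjusted p. Among the cell type markers, at probes detected on all arrays of a strain, the striatal phosphodiesterase Pde10a (-1.07) and 1 of the microglial Cx3cr1 probes (1.71, with -0.71 at the other) were called. Of the probes detected on all 8 arrays, an adjusted p below 0.05 was reached by 0 of 6 in the cholinergic neuron list, 3 of 17 in the striatal list (all lower in BTBR/R), 5 of 11 in the cortical list (4 higher and 1 lower), 1 of 11 in the thalamic list (higher) and 0 of 7 in the choroid plexus list. It was reached by 2 of 10 in the oligodendrocyte list (1 higher and 1 lower), 3 of 12 in the astrocyte list (all lower) and 4 of 7 in the microglia list (2 higher and 2 lower).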

How the data were processed

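Each array held total RNA from 1 mouse. The authors labelled it with Cy3, scanned the arrays and quantified them with Agilent Feature Extraction 10.7.3.1, per the file headers. The deposited processed signal is a background-subtracted, spatially detrended intensity in which low values are replaced by a surrogate, and the deposited mean and background intensity are raw. The authors also deposited log2 values normalised in GeneSpring, which for nearly all probes differ from the scaled signal by a constant and were used as an alternative. Probe positions are those of mm9 in the files.

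Processed signals were put on the log2 scale, the 75th percentile was subtracted array by array, and the result was tested with limma 3.58.1 (lmFit and eBayes, R 4.3.3) over all 56605 probes, BTBR/R against B6, with Benjamini-Hochberg adjustment. Control spots and outlier spots were left out, and a probe with several spots was averaged. A call needed an adjusted p below 0.05 and a 2-fold difference. Intervals are 95%. Where a strain did not detect a probe on all arrays, the fold is a lower bound, the mean of the brighter strain against, for each array of the dimmer one, the higher of the probe's signal and the lowest detected signal. Pairs of probes and relations to Chat were tested by exact permutation in Python 3.11.15 with scipy 1.17.1. The number of arrays limits the precision, and p-values measure the spread between these 4 mice a strain. The limma step was tested on simulated data.

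Every probe of the 10 genes is reported, and some genes of the lists are not reported here. List genes with a called probe detected on all arrays of a strain are named, with Slc18a3 and Slc5a7, and the 5 genes most like Chat, Chrm2 and Chrm3 across mice. The genes and lists were chosen with earlier results of these data known. The alternatives were another background correction, scaling, filter, test or block and leaving out mice. Fits restricted to probes detected on all 8 arrays, or without the 2 mice high in thalamic markers, were added after seeing the data.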

Additional observations from a re-analysis of the deposited data

Results flagged for a closer look

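Of 29 groups of 4 mice examined over the cholinergic probes, 3 held a mouse far from the other mice of its strain, and chance flags about 1 group in 20. The scaled signal of Chrm2 A_55_P2055284 was -1.71 in BTBR/R mouse 2 and -1.54 to -1.52 in the other BTBR/R mice, and that mouse was still above all B6 mice. The scaled signal of Chat A_55_P1959430 was -0.86 in BTBR/R mouse 1, the 6-month-old mouse, and -1.22 to -1.18 in the other BTBR/R mice. The scaled signal of Ache A_55_P2109326 was 0.31 in B6 mouse 1, the mouse with the highest thalamic markers, and -0.09 to -0.04 in the other B6 mice.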

How the results depend on the processing

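Chrm3 A_51_P247853 was called under all 20 alternatives, with differences from 1.65 to 2.14 on the log2 scale, and Chrm2 under 19 of them (0.92 with normexp, which left 1 of the cholinergic probes called). Calls over the whole array fell from 12697 to 563 with normexp, 2200 with quantile normalisation, 1558 without dim probes and 631 with only probes detected on all 8 arrays, and with 1 mouse left out they ran from 11792 to 12929. The split of higher against lower calls was 11413 to 1284, 231 to 332 with normexp, 544 to 1656 with quantile normalisation, 362 to 1196 without dim probes and 300 to 331 with only probes detected on all 8 arrays. The 10 calls in the pathway lists became 1 with normexp, 3 with quantile normalisation and 1 without dim probes, and 9 to 11 with 1 mouse left out. The count of cholinergic probes called was 2 to 3 with 1 mouse left out, the third being a Chat probe detected on no array. The count past the adjusted p was 4, 7 with spike-in scaling and 3 to 8 with 1 mouse left out, the 8 without B6 mouse 1. Spike-in scaling moved the median of the detected probes by 0.11, and relative to that Chat (0.39), Ache (0.28), Chrnb2 (0.24) and Chrm1 A_52_P85372 (0.33), which passed under it, differed as in the report. Chrnb2 also passed with the methods' t-test (0.13), without B6 mouse 1 (0.16) and without the mice high in thalamic markers (0.18). The Chrm3 probe A_55_P1955681 no longer passed with quantile normalisation (-0.24) or spike-in scaling (-0.13). Chrm4 changed sign with normexp (0.11), spike-in scaling (0.1) and without B6 mouse 1 (0.0), B6 mouse 3 (0.02), BTBR/R mouse 3 (0.11) or BTBR/R mouse 4 (0.07), with -0.18 to 0.11 over the mice left out, and Chat A_55_P2744606 with normexp (0.1). For these changes the cause was not tested. Mouse numbers did not pair the samples (correlation of same-numbered deviations 0.003, -0.07, -0.045 and 0.156), and the fit with the mouse number as a block gave 11693 calls over the array, the same 2 cholinergic calls (Chrm3 2.03, Chrm2 1.35) and 8 pathway calls. A probe under the BTBR/R detection limit has only a bound there.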
